A study of Mus musculus with 7 samples.

Results

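The fuel-switch genes are 6 mouse genes that steer skeletal muscle between burning glucose and burning fat: Pdk4, Pdk2, Acss1, Angptl4, Acot2 and Ucp3. They were taken by name from the gene tables of all 7 muscles, and all 6 were present, out of 53083 genes shared by those tables. The study sequenced polyA RNA from single cryosections of the mouse tibialis anterior, the main muscle at the front of the shin. By their labels 3 muscles were DMD, 2 were Ctr and 2 were WT, DMD being the group of Duchenne muscular dystrophy in the series title. The labels give no genotype, strain, age, feeding state or time of sampling beyond these group names. The table headers carry the word mdx for DMD (the usual name of a dystrophin-deficient mouse), hDMD for Ctr and pax7 for WT, and no source used here explains them. It is not stated that the muscles came from separate animals, so every p-value measures the spread between these 7 samples, which may be technical.

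When food is scarce, muscle spares glucose. The kinases Pdk4 and Pdk2 phosphorylate and switch off the pyruvate dehydrogenase complex, the gate through which pyruvate from glucose enters oxidation in the mitochondria. Pdk4 is the isoform known to be induced in muscle by fasting and fatty acids, and Pdk2 is the more steadily expressed one. Acss1 is the mitochondrial acetyl-CoA synthetase, which activates acetate. Angptl4 is a secreted inhibitor of lipoprotein lipase, the enzyme that releases fatty acids from blood lipids. Acot2 is a mitochondrial thioesterase that frees fatty acids from acyl-CoA, and Ucp3 is the uncoupling protein of the mitochondrial inner membrane in skeletal muscle. Several of them, Pdk4, Angptl4 and Ucp3 among them, are known targets of the fatty acid receptors of the PPAR family.

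The muscles held 11181994 to 41407203 counts each in DMD, 12224463 and 15575632 in Ctr, and 18268732 and 23116888 in WT. Of 525 sections, 422 were used. Levels are CPM, counts scaled to the same library total, after TMM scaling. TMM adjusts each library total by a factor that takes most genes as unchanged. The factors were 1.41, 1.34 and 0.983 in DMD, 1.04 and 0.962 in Ctr, and 0.804 and 0.669 in WT. They differed by group, so the size and order of small differences, above all between DMD and WT, depend on this scaling. Mitochondrially encoded genes took 25.7 to 34.3% of counts in DMD, 29.4 and 30.4% in Ctr, and 41.6 and 45.9% in WT. All 6 muscle fibre markers (Ckm, Acta1, Tnnt3, Mylpf, Myh4 and Des) were present in every muscle. Dmd, the dystrophin gene, was read in all of them at 9.25 to 14.8 CPM in DMD, 9.56 and 15.9 CPM in Ctr, and 13.2 and 16.3 CPM in WT, and polyA counts over a whole gene do not check which allele a muscle carried. WT tables were counted with another annotation than the Ctr and DMD tables, so for any difference from WT the group and that processing cannot be told apart. One library stands apart for these genes, Ctr replicate 1, and results that rest on it are given with and without it.

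The counted values cover the annotated exons of each gene, UTRs included. On GRCm38 Pdk4 spans chr6:5483351-5496309, Pdk2 chr11:95026258-95041354, Acss1 chr2:150618105-150668500 and Angptl4 chr17:33773750-33781830, all on the minus strand. Acot2 spans chr12:83987861-83993873 and Ucp3 chr7:100472990-100486432, both on the plus strand. None shares exon bases with another gene on its own strand.

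Promoters are shown for 3 genes: Pdk4, with the largest log2 difference between DMD and Ctr, and Ucp3 and Pdk2, whose windows hold a searched motif. Each is the RefSeq promoter on GRCm38.p6, 250 bases before to 50 after the start, 5′ to 3′ on the gene's strand. The window of Pdk4 is chr6:5496229-5496528 on the minus strand, that of Ucp3 chr7:100472741-100473040 on the plus strand and that of Pdk2 chr11:95041322-95041621 on the minus strand. Capitals mark AGGTCA, the core site of nuclear receptors, in Ucp3, and the E-box CACGTG in Pdk2.
Pdk4: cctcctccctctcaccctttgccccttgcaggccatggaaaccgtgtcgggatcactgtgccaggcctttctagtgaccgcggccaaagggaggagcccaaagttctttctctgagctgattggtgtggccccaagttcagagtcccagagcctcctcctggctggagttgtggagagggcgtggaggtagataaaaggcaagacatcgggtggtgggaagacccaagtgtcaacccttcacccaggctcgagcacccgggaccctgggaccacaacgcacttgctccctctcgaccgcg
Ucp3: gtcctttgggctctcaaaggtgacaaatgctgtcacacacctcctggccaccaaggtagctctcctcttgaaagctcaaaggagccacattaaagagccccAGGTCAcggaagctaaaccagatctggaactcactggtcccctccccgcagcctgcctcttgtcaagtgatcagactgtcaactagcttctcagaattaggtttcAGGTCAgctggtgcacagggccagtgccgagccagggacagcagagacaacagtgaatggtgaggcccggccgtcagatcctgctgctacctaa
Pdk2: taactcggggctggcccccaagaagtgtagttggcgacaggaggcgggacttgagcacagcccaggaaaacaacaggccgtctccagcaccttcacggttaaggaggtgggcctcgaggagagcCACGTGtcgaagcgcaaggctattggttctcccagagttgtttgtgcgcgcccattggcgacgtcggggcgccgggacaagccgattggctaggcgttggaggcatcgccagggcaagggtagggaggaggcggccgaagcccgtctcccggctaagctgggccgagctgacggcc
RefSeq promoters were matched for 5 of the 6 genes, the exception being Angptl4. Both strands were searched for AGGTCA, for a pair of them with 1 base between (AGGTCANAGGTCA, which contains AGGTCA), for the FoxO core TGTTTAC and for CACGTG. Ucp3 holds AGGTCA at positions -149 and -44 from the start, and Pdk2 holds CACGTG at -126. None of these letters occur in the windows of Pdk4, Acss1 and Acot2. Of 32851 promoters of the same length, 16.3% hold AGGTCA, 7.15% CACGTG, 3.65% TGTTTAC and 0.0396% the pair. A match describes letters only.

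Pdk4 was low in DMD muscle. It lay at 15.2, 9.62 and 4.10 CPM in the DMD muscles, at 306 and 20.5 CPM in the Ctr muscles, and at 27.5 and 19.8 CPM in the WT muscles. On the TMM scale every DMD muscle was below all 4 others, and Ctr replicate 1 alone stood far above the rest. Group means were 9.65 ± 5.56 CPM in DMD (SD, n = 3), 163 ± 202 CPM in Ctr (n = 2) and 23.7 ± 5.44 CPM in WT (n = 2). The spread within Ctr was larger than its mean. In edgeR's quasi-likelihood test over all genes, with Benjamini-Hochberg adjustment, Pdk4 fell in DMD against Ctr by 4.07 ± 0.86 on the log2 scale (± is an approximate SE, adjusted p = 0.0212). Without Ctr replicate 1 the log2 fold was -1.08 (adjusted p = 0.338), and it was -1.28 ± 0.83 against WT (adjusted p = 0.313). The low level is thus tested against 1 very high muscle. In a whole-muscle sum, fewer cells of a type and less RNA per cell cannot be told apart.

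Pdk2, the steadier kinase, behaved otherwise. It lay at 80.9, 86.6 and 114 CPM in DMD, at 152 and 157 CPM in Ctr and at 138 and 146 CPM in WT. The 2 Ctr muscles were nearly equal, and on the TMM scale every DMD muscle was below all 4 others. Means were 93.8 ± 17.6 CPM in DMD (SD, n = 3), 155 ± 3.24 CPM in Ctr (n = 2) and 142 ± 5.53 CPM in WT (n = 2). Pdk2 fell in DMD against Ctr by 0.72 ± 0.21 on the log2 scale (edgeR adjusted p = 0.0493), just inside the threshold of 0.05. It was at -0.60 ± 0.21 against WT (adjusted p = 0.078). Its log2 fold was -0.75 (adjusted p = 0.233) when Ctr replicate 1 was left out, so the size held while the call did not, with 1 Ctr muscle left.

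Acss1 separated the Ctr group from the others. The DMD muscles had 28.4, 25.9 and 33.9 CPM, the Ctr muscles 326 and 64.7 CPM, and the WT muscles 24.4 and 18 CPM. Both Ctr muscles were above all 5 others, and every DMD muscle was slightly above both WT muscles. Acss1 fell in DMD against Ctr by 2.73 ± 0.51 on the log2 scale (edgeR adjusted p = 0.0145). Leaving out Ctr replicate 1 gave -1.14 (adjusted p = 0.118). Against WT the DMD muscles were at 0.47 ± 0.52 (adjusted p = 0.566), and Ctr over WT gave 3.20 ± 0.60 (adjusted p = 0.0609), or 1.6 without Ctr replicate 1 (adjusted p = 0.178). Its annotated exons overlap those of E130215H24Rik on the opposite strand only, and the counting used strand.

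Acot2, like Acss1, was highest in the Ctr muscles. It lay at 4.61, 4.14 and 4.75 CPM in DMD, at 81.7 and 16.7 CPM in Ctr, and at 5.98 and 3.77 CPM in WT. The DMD and WT muscles overlapped, and both Ctr muscles were above them all. Acot2 fell in DMD against Ctr by 3.45 ± 0.52 on the log2 scale (edgeR adjusted p = 0.00796), a level 10.9-fold lower. Of the 6 genes it alone was still called without Ctr replicate 1, at -1.89 (adjusted p = 0.0403). The value was -0.13 ± 0.54 for DMD over WT (adjusted p = 0.896) and 3.32 ± 0.61 for Ctr over WT (adjusted p = 0.0553). That Ctr over WT value was 1.76 without Ctr replicate 1 (adjusted p = 0.178). Acot2 shares 27.7% of its 50-base windows with other transcripts, 24.5% with the neighbouring paralogue Acot1, so reads may have been divided between them and its level is less certain. Acot1 itself lay at 0.395, 0.201 and 0.131 CPM in DMD, at 1.85 and 0.341 CPM in Ctr, and at 0.215 and 0.164 CPM in WT, with the same muscle highest.

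Ucp3 lay at 9.86, 15.0 and 6.98 CPM in DMD, at 63.7 and 21.5 CPM in Ctr and at 19.0 and 16.7 CPM in WT. On the TMM scale every DMD muscle was below all 4 others, but DMD replicate 2 came close to the lower WT muscle. Ucp3 fell in DMD against Ctr by 2.02 ± 0.42 on the log2 scale (edgeR adjusted p = 0.0194). When Ctr replicate 1 was left out it was at -1.04 (adjusted p = 0.207), and against WT at -0.76 ± 0.42 (adjusted p = 0.238). Leaving out DMD replicate 1 also ended the call against Ctr (-1.96, adjusted p = 0.0617), as leaving out DMD replicate 2 did for Pdk4 (-4.03, adjusted p = 0.0604). Ucp1, the brown fat relative of Ucp3, had 0 counts in all 7 muscles, where 3 counts would amount to 0.0515 to 0.255 CPM.

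Angptl4 was scarce and went the other way. It had 242, 39 and 17 counts in the DMD muscles, 36 and 2 counts in the Ctr muscles, and 2 and 5 counts in the WT muscles. Scaled, these are 4.15, 2.61 and 0.741 CPM in DMD, 2.22 and 0.17 CPM in Ctr, and 0.108 and 0.41 CPM in WT. All 3 DMD muscles were above both WT muscles, while Ctr replicate 1 lay within the DMD range. The log2 fold was 1.02 ± 0.83 for DMD over Ctr (edgeR adjusted p = 0.439) and 3.42 ± 1.08 for DMD over WT (adjusted p = 0.0597), and neither passed. The value over Ctr was 3.86 without Ctr replicate 1 (adjusted p = 0.198) and 0.19 without Ctr replicate 2 (adjusted p = 0.904). With 2 counts in Ctr replicate 2 and in WT replicate 1, these folds rest on very few counts.

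**Figure D1:**
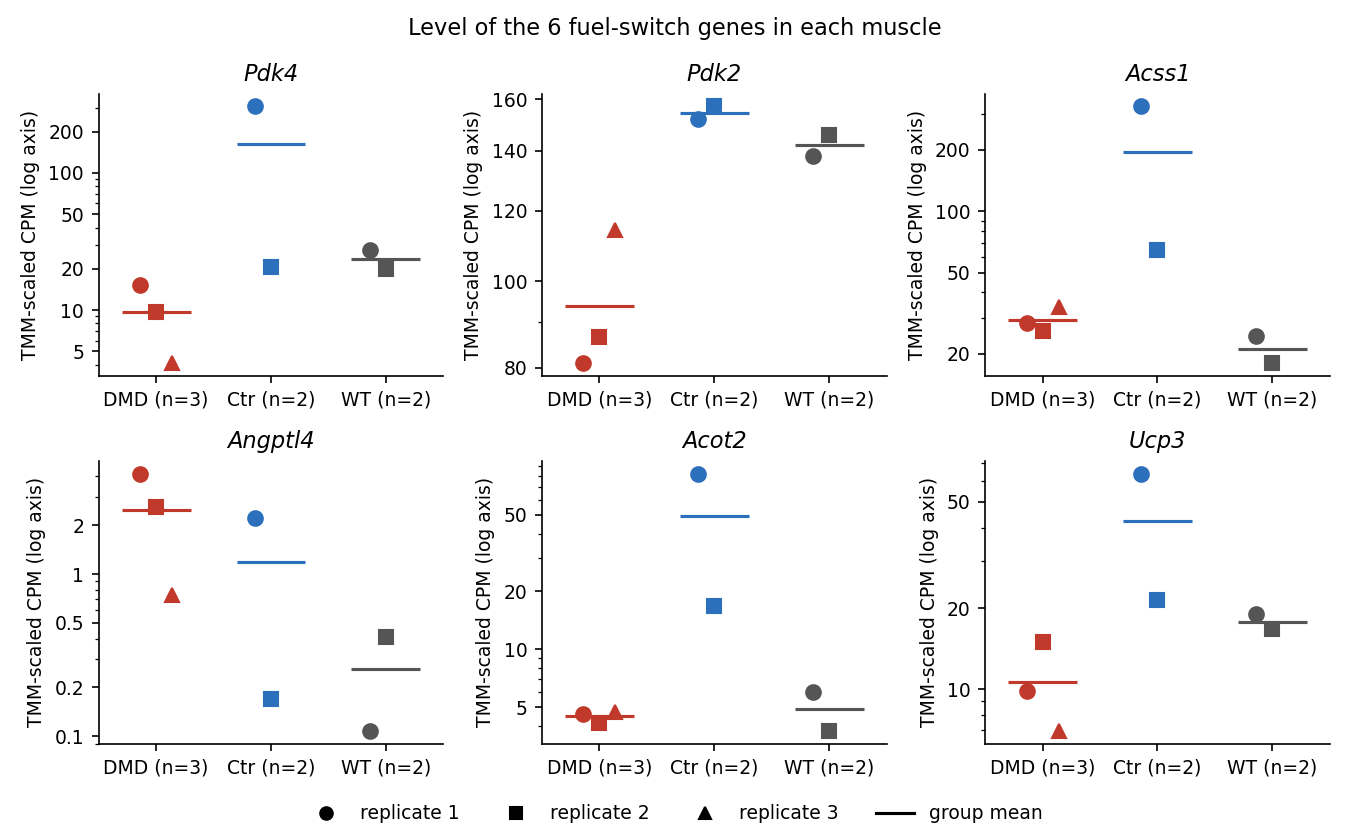
TMM-scaled CPM of each gene (log axis) in the DMD, Ctr and WT muscles, 1 point per muscle with its shape showing the replicate and a line at the group mean. Pdk4, Acss1, Acot2 and Ucp3 peak in Ctr replicate 1, Pdk2 is nearly level across Ctr and WT, and Angptl4 is highest in DMD replicates 1 and 2.

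Taking the genes by count, 5 of 6 were called lower in DMD than in Ctr, and Angptl4 was not called. Across all 13746 genes tested 5.49% were called lower, 7.17% higher and 12.7% in either direction. The median log2 fold was -2.38 over the 6 genes and 0.02 over all genes. With Ctr replicate 1 left out, 1 of the 6 was called, against a background of 0.379% of 14786 genes, and with Ctr replicate 2 left out 4 were, against 6.49%. In DMD against WT, 0 of 6 were called with edgeR, where 15.2% of genes were, and DESeq2 called 1, Angptl4. Before adjustment edgeR put 2 of them below 0.05, Angptl4 and Pdk2, at an unadjusted 0.0105 and 0.0168. In Ctr against WT, 0 of 6 were called where 0.364% of genes were, and DESeq2 called 2, Acss1 and Acot2. Unadjusted, edgeR put 4 of them below 0.05: Acot2 at 0.000286, Acss1 at 0.00035, Pdk4 at 0.0161 and Ucp3 at 0.0233. For Pdk4 and Ucp3 the log2 folds of Ctr over WT were 2.78 and 1.26, and without Ctr replicate 1 they were -0.21 and 0.27. The comparisons share samples, so their values are not independent of each other.

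On TMM-scaled CPM the groups did not overlap for several genes. Pdk4, Pdk2, Acss1, Acot2 and Ucp3 were lower in every DMD muscle than in both Ctr muscles, as were 22.2% of all genes. Pdk4, Pdk2 and Ucp3 were lower in every DMD muscle than in all 4 Ctr and WT muscles, a pattern shown by 12.1% of all genes. That pattern depended on the TMM factors. With counts over library totals alone, none of these genes was lower in every DMD muscle than in all 4 others. Pdk4 in DMD replicate 1 was then above Ctr replicate 2. Pdk2, Acss1, Acot2 and Ucp3 were higher in both Ctr muscles than in all 5 others, as were 11.1% of genes. Acss1 and Angptl4 were higher in every DMD muscle than in both WT muscles, as were 26.7% of genes. For Pdk4, WT replicate 1 lay above Ctr replicate 2 and WT replicate 2 below it, so those 3 muscles do not separate by group.

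**Figure D2:**
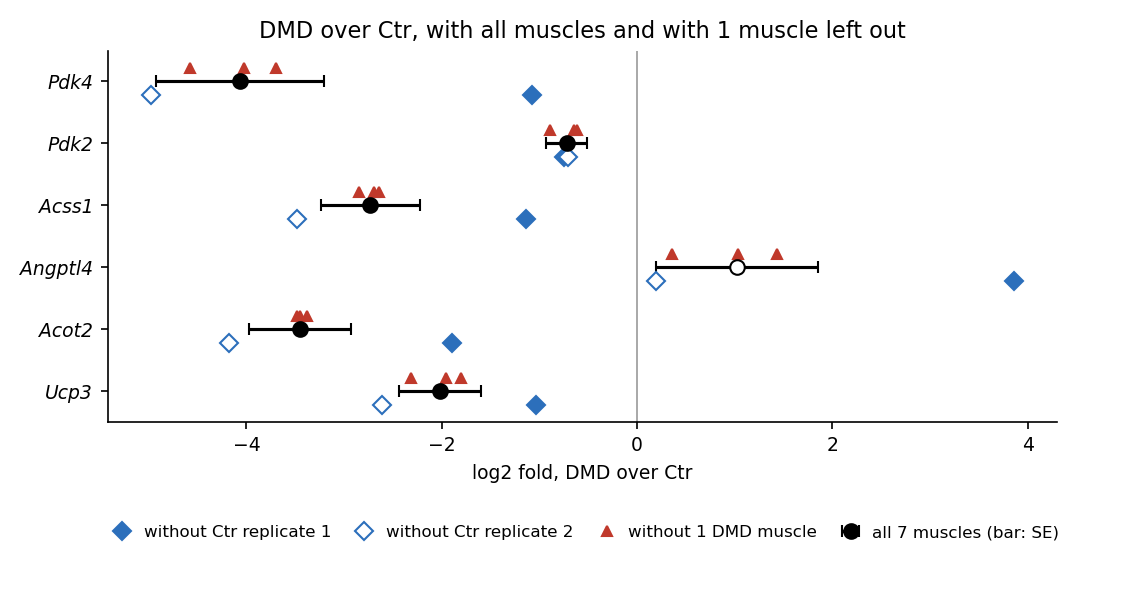
Log2 fold of DMD over Ctr for each gene with all 7 muscles (black, filled where called, bar = approximate SE), without Ctr replicate 1 or 2 (diamonds) and without each DMD muscle (triangles). For Pdk4 the value is -4.07 with all muscles and -1.08 without Ctr replicate 1, whereas Pdk2 stays between -0.89 and -0.61 whichever muscle is left out.

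The 2 Ctr muscles differed widely from each other for most of these genes. Pdk4 was 14.9-fold higher in Ctr replicate 1 than in Ctr replicate 2 (95% interval 13.1 to 17.0, from 4960 and 241 counts, counting error only). Of 13161 genes with enough counts, 4 had a ratio that high, Pdk4 included. The ratio was 5.04 for Acss1 (4.67 to 5.45), 4.89 for Acot2 (4.21 to 5.72) and 2.96 for Ucp3 (2.57 to 3.40). Pdk2 was even between both muscles at 0.971 (0.914 to 1.03), close to the all-gene median of 0.999. For Angptl4, from 36 and 2 counts, it was 13.0 with an interval of 3.36 to 112. Of all genes, 4.65% were at least 2-fold higher in Ctr replicate 1. Pdk4, Acss1, Acot2 and Ucp3 were highest of the 7 muscles in Ctr replicate 1, as 18.3% of genes were.

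**Figure D3:**
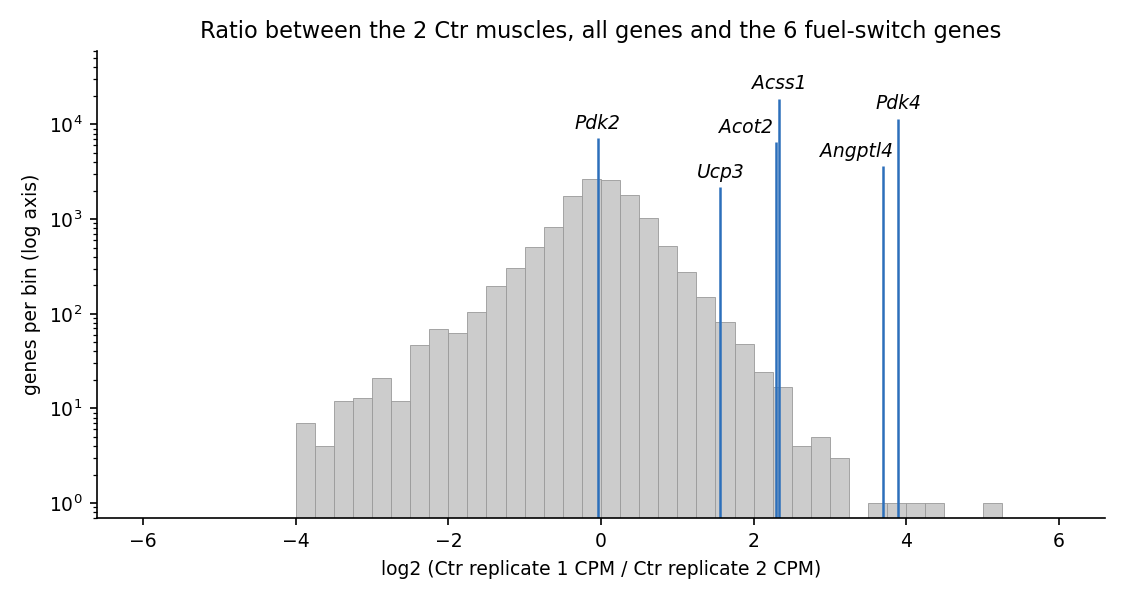
Distribution of the log2 ratio of Ctr replicate 1 to Ctr replicate 2 over 13161 genes with at least 3 counts in Ctr replicate 2 (grey bars, log axis), with the 6 genes as vertical lines. Pdk4, Angptl4, Acss1, Acot2 and Ucp3 lie in the right tail and Pdk2 lies at the centre; Angptl4, with 2 counts in Ctr replicate 2, is drawn but not among the bars.

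The high levels ran through the whole of Ctr replicate 1. For Pdk4, all 61 of its sections were above the highest section of each of the 6 other muscles, with a lowest section of 214 CPM and a median of 302 CPM, where the highest section of Ctr replicate 2 had 58.0 CPM. Acss1 gave the same picture, with all 61 sections (197 to 508 CPM) above every section elsewhere. Of the Acot2 values, 55 of 61 exceeded the highest section of Ctr replicate 2 and all 61 exceeded every DMD section. Ucp3 overlapped more, with 41 of 61 sections above the highest of Ctr replicate 2. Sections of 1 muscle are not replicates, and these counts describe that muscle only.

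Genes known for fasting, FoxO and glucocorticoid responses moved with the same muscle. Of 22 such genes, all tested, 21 were highest in Ctr replicate 1, with a median ratio to Ctr replicate 2 of 3.87. Fbxo32, a ubiquitin ligase of muscle atrophy, lay at 102, 62.8 and 197 CPM in DMD, at 1180 and 234 CPM in Ctr and at 124 and 161 CPM in WT. Trim63, another such ligase, had 67.2, 50.9 and 74.3 CPM in DMD, 495 and 78.8 CPM in Ctr, and 82.8 and 62.3 CPM in WT. Against Ctr, 10 of the 22 fell in DMD, 0 rose and 12 were not called, with a median log2 fold of -1.25, beside 5.49% of all genes called lower. Ddit4, a stress-induced brake on mTOR, fell by 3.34 ± 0.43 on the log2 scale (edgeR adjusted p = 0.00446), Fbxo32 by 2.55 ± 0.61 (adjusted p = 0.0284) and the transcription factor Cebpd by 2.17 ± 0.60 (adjusted p = 0.0433). Of the 22, Ddit4 alone was called without Ctr replicate 1 (-2.37, adjusted p = 0.042), and the list's median was then -0.30. In Ctr against WT 2 of the 22 were called, where 0.364% of all genes were. Ddit4 rose by 4.60 ± 0.57 and Arrdc2, an arrestin-related gene, by 3.86 ± 0.63 (edgeR adjusted p = 0.0187 and 0.0463). Neither call held without Ctr replicate 1 (3.63 and 3.22, adjusted p = 0.0575 and 0.207) or with either WT muscle left out (adjusted p = 0.205 to 0.493). In DMD against WT 1 of the 22 was called higher, beside 8.25% of all genes, and none lower. It was Arrdc2, by 2.16 ± 0.60 (edgeR adjusted p = 0.0403), with 3.46 without WT replicate 1 and 1.62 without WT replicate 2. The part of these 22 genes in the levels of the fuel-switch genes was not tested.

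Most genes on a list of fat use, called the fat-burning genes below, had lower values in DMD. Of 24 genes of fatty acid uptake, activation and oxidation, 15 fell and 1 rose in DMD against Ctr, and 8 were not called (median log2 fold -1.05), where 5.49% of all genes fell and 7.17% rose. Acacb, the carboxylase that makes malonyl-CoA at the mitochondria, fell by 2.02 ± 0.58 (edgeR adjusted p = 0.0492). Lpl, the lipase that Angptl4 inhibits, fell by 1.85 ± 0.28 (adjusted p = 0.00811), and Mlycd, which removes malonyl-CoA, by 1.72 ± 0.29 (adjusted p = 0.0108). Acacb and Mlycd act in opposite ways on malonyl-CoA, so falls in both do not give a single direction of fat use. Against WT, 15 fell and 1 rose, where 6.92% of all genes fell and 8.25% rose. Eci1, an enzyme for unsaturated fatty acids, fell by 1.68 ± 0.25 (adjusted p = 0.00605) and the fatty acid binding protein Fabp3 by 1.49 ± 0.33 (adjusted p = 0.0207). The 1 gene that rose in both was Cpt1a, the carnitine transferase isoform of liver and other tissues, by 1.65 ± 0.39 against WT (adjusted p = 0.0243). These fat-burning genes differed less between the 2 Ctr muscles than the fuel-switch genes, with a median ratio of 1.32. Still, 15 of the 24 were highest of the 7 muscles in Ctr replicate 1, as 18.3% of all genes were. With Ctr replicate 1 left out none of the 24 was called, 23 had a negative sign and the median was -0.79. Without WT replicate 1, 1 was called against WT, and without WT replicate 2 none was, where 0.542% and 0.461% of all genes were.

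Around pyruvate dehydrogenase, 12 genes were measured. Against Ctr, 2 fell and 1 rose in DMD, beside 5.49% and 7.17% of all genes. The phosphatase Pdp2, which reverses the kinases, changed by -2.27 ± 0.50 (edgeR adjusted p = 0.0239). Pdpr, a regulatory subunit of pyruvate dehydrogenase phosphatase, changed by -1.90 ± 0.32 (adjusted p = 0.0113), and the kinase Pdk3 by 2.20 ± 0.50 (adjusted p = 0.0258). Pdp1, a more abundant phosphatase than Pdp2, was not called against Ctr. Its means were 42 ± 5.42 CPM in DMD (SD, n = 3), 32 ± 19.1 CPM in Ctr (n = 2) and 37.4 ± 4.68 CPM in WT (n = 2). Pdk3 is scarce, at 1.0 to 1.6 CPM in DMD and under 0.5 CPM in each Ctr and WT muscle. Pdp2, like Pdk4, was highest in Ctr replicate 1, with 1.87, 1.67 and 1.79 CPM in DMD, 14.1 and 2.89 CPM in Ctr and 2.15 and 1.56 CPM in WT, but its DMD and WT muscles overlapped. Against WT, 6 fell and 1 rose, beside 6.92% and 8.25% of all genes, with the pyruvate carrier Mpc1 at -1.45 ± 0.19 (adjusted p = 0.00387) and the complex's Dld subunit at -1.38 ± 0.24 (adjusted p = 0.00948). Without WT replicate 1, 1 of these calls was left, Mpc1, and without WT replicate 2 there were 0. Pdk1, the remaining kinase, lay at 6.88, 7.69 and 8.11 CPM in DMD, 11.2 and 11.4 CPM in Ctr, and 14.2 and 14.3 CPM in WT. Without Ctr replicate 1 only Pdpr was called against Ctr (-2.25, adjusted p = 0.042).

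Among 15 tested PPAR targets and thioesterases outside the 6 genes, 4 fell and 1 rose in DMD against Ctr, and 2 fell and 1 rose against WT. Of all genes, 5.49% fell and 7.17% rose against Ctr, and 6.92% fell and 8.25% rose against WT. The 1 of 15 that rose is near those shares. Slc25a34, a mitochondrial carrier, fell by 4.15 ± 0.69 (edgeR adjusted p = 0.0108), Plin5, a lipid droplet coat protein, fell by 3.99 ± 0.60 (adjusted p = 0.00796), and Pnpla2, the main triglyceride lipase, fell by 2.16 ± 0.32 (adjusted p = 0.00752). Plin5 lay at 1.41, 1.80 and 0.741 CPM in DMD, at 34.9 and 6.30 CPM in Ctr and at 4.74 and 5.16 CPM in WT, so its DMD muscles were below all others. Slc25a34 also fell against WT, by 2.63 ± 0.71 (adjusted p = 0.0365), while Ucp2, the uncoupling protein of immune and other cells, rose by 2.12 ± 0.48 (adjusted p = 0.022). Without Ctr replicate 1 none of the 15 was called against Ctr, and with either WT muscle left out none was against WT. Of 8 genes of acetate and ketone body use, 3 fell against Ctr and 4 against WT, and 1 was still called against WT with either WT muscle left out, Bdh1. Bdh1, which interconverts the ketone bodies, fell by 3.75 ± 0.36 against Ctr (adjusted p = 0.0019) and by 4.41 ± 0.36 against WT (adjusted p = 0.000438). It was still called without Ctr replicate 1 (-3.30, adjusted p = 0.0203). Acss2, the cytosolic counterpart of Acss1, lay at 5.70, 6.02 and 5.28 CPM in DMD, 6.05 and 7.58 CPM in Ctr, and 12.9 and 12.1 CPM in WT, an order unlike that of Acss1.

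Of 17 transcription factors and cofactors of fuel use, 8 fell in DMD against Ctr and 3 against WT, and none rose. As in the preceding lists, the shares of all genes that fell were 5.49% against Ctr and 6.92% against WT. Esrrb, an oestrogen-related receptor, fell by 4.15 ± 0.36 against Ctr (edgeR adjusted p = 0.0013) and by 3.36 ± 0.36 against WT (adjusted p = 0.00194), and its relative Esrrg by 2.16 ± 0.50 and 2.07 ± 0.50 (adjusted p = 0.0264 and 0.0255). Ppargc1a, the coactivator that drives mitochondrial genes, had 9.69, 12.2 and 16.2 CPM in DMD, 58.2 and 26.7 CPM in Ctr, and 18.3 and 14.2 CPM in WT. Only Esrrb was called against Ctr without Ctr replicate 1 (-3.79, adjusted p = 0.0137), and 1 of the 17 against WT with either WT muscle left out, again Esrrb. On the glucose side 2 of 12 genes fell against Ctr, and 1 fell against WT, a share near the 6.92% of all genes. Hk2, the hexokinase that traps glucose in muscle, fell by 2.14 ± 0.24 against Ctr (adjusted p = 0.00374) and by 0.91 ± 0.24 against WT (adjusted p = 0.0333), and it was called against Ctr without Ctr replicate 1 as well (-1.75, adjusted p = 0.0328). Against WT it was not called without WT replicate 1 or 2 (adjusted p = 0.209 and 0.188). The glucose transporter Slc2a4 lay at 31.3, 23.1 and 32.8 CPM in DMD, 35.1 and 35.7 CPM in Ctr, and 39.5 and 35.0 CPM in WT, and was not called. In Ctr against WT no gene of these 5 groups nor of the fat-burning list was called. Their most abundant genes were at 0.51 ± 0.37 for Pdha1, 1.02 ± 0.31 for Lpl, 1.51 ± 0.36 for Pnpla2, 0.54 ± 0.34 for Cs, 1.32 ± 0.39 for Lpin1 and 0.00 ± 0.30 for Pygm.

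**Figure D4:**
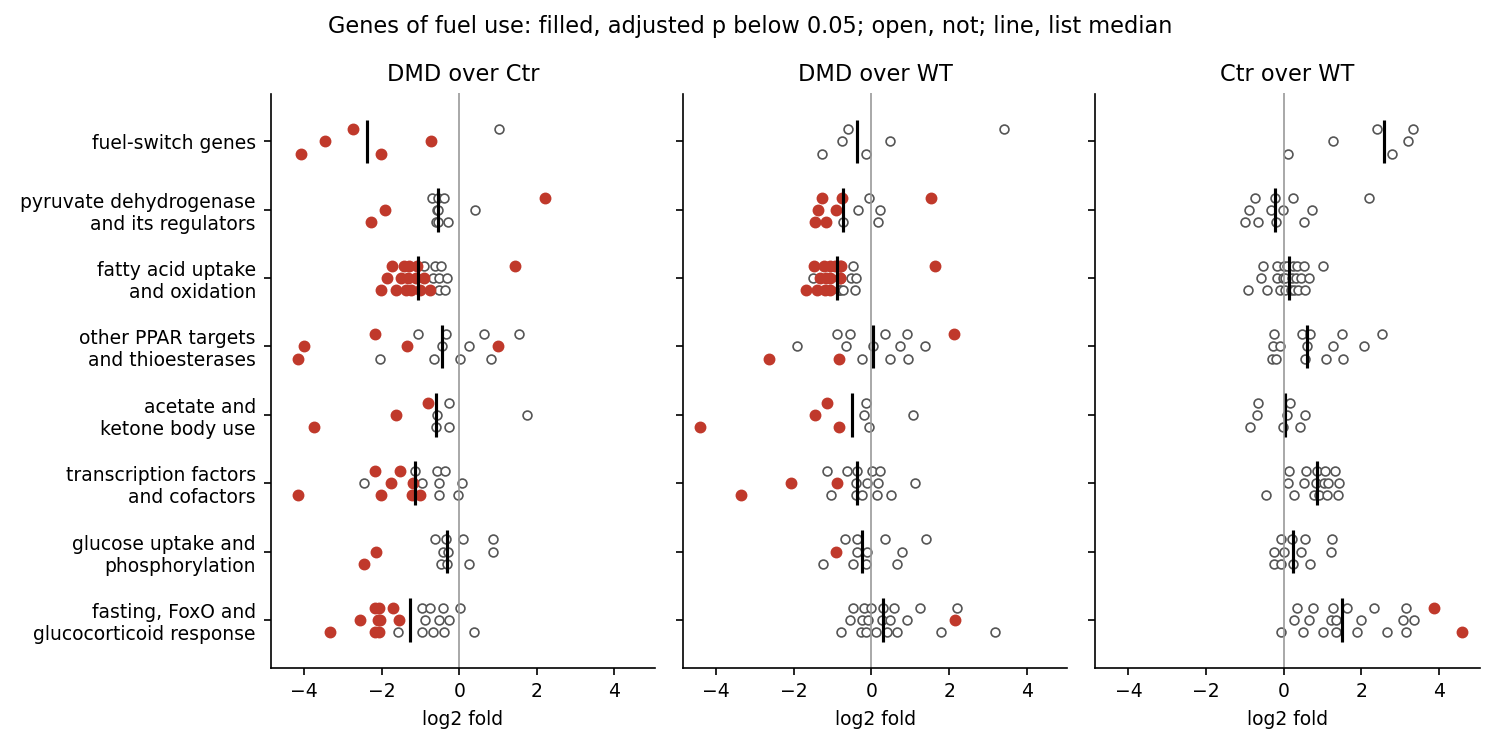
Log2 fold of every tested gene in the fuel-switch set and in 7 lists of fuel-use genes, for DMD over Ctr, DMD over WT and Ctr over WT (red, edgeR adjusted p below 0.05; open, not called; vertical line, list median). Of the 24 fat-burning genes 23 lie left of 0 over both Ctr and WT, Cpt1a being the exception, whereas the fasting list has a median of -1.25 over Ctr and 0.28 over WT.

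Markers of other cell types differed between the groups. The summed level of 7 macrophage markers was 772, 614 and 130 CPM in DMD, 28.6 and 49.0 CPM in Ctr, and 46.6 and 54.5 CPM in WT, and all 7 rose in DMD against both. Of 6 regenerating fibre markers 5 rose against both groups, with sums of 70.2, 79.5 and 21.5 CPM in DMD, 7.03 and 11.5 CPM in Ctr, and 5.6 and 4.67 CPM in WT. The 7 fibroblast and tendon markers summed to 909, 1200 and 577 CPM in DMD, 228 and 355 CPM in Ctr, and 395 and 504 CPM in WT, with 5 higher against Ctr, and 2 higher and 1 lower against WT. Beside these marker counts, 7.17% of all genes were called higher against Ctr, and 8.25% higher and 6.92% lower against WT. The 1 lower marker is therefore not read as a result. Endothelial markers, 5 in number, summed to 202 to 336 CPM in DMD, 261 and 311 CPM in Ctr, and 402 and 458 CPM in WT, and none was called. The 6 muscle fibre markers summed to 43600, 50600 and 59200 CPM in DMD, 59200 and 74000 CPM in Ctr, and 63900 and 63400 CPM in WT, and none was called. The 7 adipocyte markers were low throughout, at 70.0 to 93.4 CPM in DMD, 99.3 and 108 CPM in Ctr, and 125 and 184 CPM in WT, mostly from Fabp4, with Lep at 0 counts in DMD replicate 2 and both Ctr muscles. Of the 5 adipocyte markers tested, 1 was called lower in DMD against WT, beside 6.92% of all genes, and none was called against Ctr. DMD replicate 3, with the lowest macrophage and regeneration markers of its group, had the lowest Pdk4, Ucp3 and Angptl4 of the 3. It also had the highest Pdk2, Acss1 and Acot2, so the genes did not all go the same way. Their part in the differences of the 6 genes was not tested. The median log2 fold of the 7 macrophage markers over Ctr was 4.73 with every muscle in. Dropping Ctr replicate 1 left this median at 4.07, and dropping Ctr replicate 2 instead gave 4.91. Over WT the median was 4.29 with every muscle in, 4.15 without WT replicate 1 and 4.11 without WT replicate 2. How many of the macrophage markers were called depended on which Ctr or WT muscles were kept, while the size held in each of these fits.

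Along the muscle none of the 6 genes passed a test of position. The kept sections of each muscle were divided into 5 consecutive runs by the section number in the headers, which the labels do not explain. Over 2694 genes, neighbouring bins (10 per muscle) correlated at a mean r of 0.0941 to 0.418 after centring, and bins 5 steps apart at -0.194 to -0.312. Pdk4 in DMD replicate 1 went through 12.5, 14.8, 18.7, 14.4 and 14.2 CPM from the first to the last run, and in Ctr replicate 1 through 306, 317, 308, 310 and 285 CPM. In WT replicate 2 it went through 19.9, 24.9, 18.3, 16.8 and 13.9 CPM. The highest run exceeded the lowest by 1.11-fold in Ctr replicate 1 and by at most 1.80-fold in any muscle. Acot2 varied more, with a highest run 1.36-fold to 2.46-fold above the lowest. For Pdk2 the ratio reached 1.78 in DMD replicate 2, whose end runs of 104 and 111 CPM enclosed a middle run of 62.2 CPM. The other DMD muscles did not share that dip, with 69.9, 75.1, 85.8, 89.9 and 82.4 CPM in replicate 1 and 116, 114, 107, 127 and 98.7 CPM in replicate 3.

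In the test of the end runs against the middle 3, 0 of the 6 genes were called with edgeR, where 0.506% of 12253 genes were, and DESeq2 also called 0. Before adjustment edgeR put 1 of them below 0.05, Acss1 at 0.0147. Acss1 was at -0.18 ± 0.07 (adjusted p = 0.499), and its ends were below its middle in 6 of 7 muscles, at ratios of 0.669 to 1.02. Pdk4 was below 1 in 6 of 7 muscles too (0.831 to 1.07), at -0.12 ± 0.07 (adjusted p = 0.825), as was Pdk2 (0.840 to 1.44), at -0.06 ± 0.06 (adjusted p = 0.921). Acot2 was below 1 in 5 of 7, at -0.25 ± 0.13 (adjusted p = 0.733), and Ucp3 in 3 of 7, at -0.02 ± 0.09 (adjusted p = 0.998). Angptl4 alone had a positive value, 0.65 ± 0.45 (adjusted p = 0.849), and was above 1 in 3 of the 5 muscles with a ratio. The difference of this position effect between DMD and the mean of Ctr and WT was not called for any of the 6 either (0.0408% of genes were), running from -0.50 ± 0.67 for Angptl4 to 0.20 ± 0.13 for Pdk2. Nor was the last run against the first (0.889% of 9670 genes were), from -0.32 ± 0.19 for Acot2 to 0.56 ± 0.68 for Angptl4. DESeq2 called 0 in both, and none of the 6 had an unadjusted p below 0.05 in either with edgeR.

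Angptl4 had too few counts for a profile in most muscles. DMD replicate 1, with the most, had 2.54, 3.25, 3.17, 4.75 and 8.03 CPM from the first to the last run, on 24.5 to 74 counts each. Its last run was 3.16-fold above its first, and the same ratio was 0.890 in DMD replicate 2 and 0.729 in Ctr replicate 1. In the remaining muscles a run often held 0 or 1 count.

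**Figure D5:**
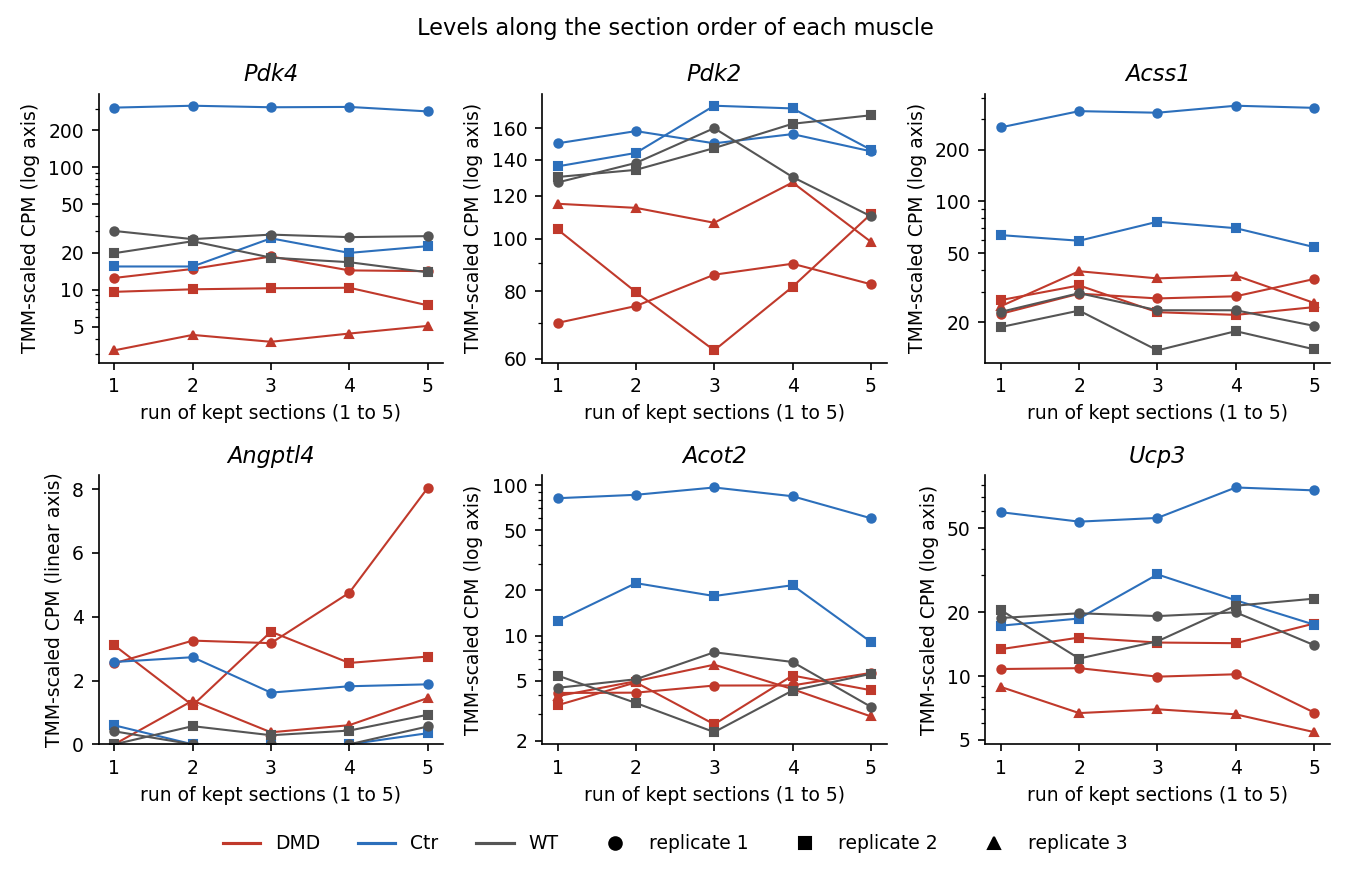
TMM-scaled CPM of each gene in the 5 consecutive runs of kept sections of each muscle (log axis, linear for Angptl4), coloured by group with the shape showing the replicate. Ctr replicate 1 is highest in all 5 runs for Pdk4, Acss1, Acot2 and Ucp3, and Angptl4 in DMD replicate 1 reaches 8.03 CPM in its last run.

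A few genes of the fuel-use lists were called by position, and their values give a scale for this. Of 24 fat-burning genes 1 was called for the ends, where 0.506% of all genes were. Slc27a1, a fatty acid transporter, fell toward the ends by 0.30 ± 0.07 on the log2 scale (edgeR adjusted p = 0.029). For the last against the first run 4 of the 24 were called, where 0.889% of all genes were. In the last against the first run Fabp3 fell by 0.85 ± 0.13, Lpl by 0.76 ± 0.11 and Acadl, a dehydrogenase of long-chain fatty acids, by 0.57 ± 0.10 (adjusted p = 0.00212, 0.00212 and 0.00985). Slc25a34, 1 of 12 tested PPAR targets and thioesterases, fell by 1.36 ± 0.31 (adjusted p = 0.049). Oxct1, which activates ketone bodies for oxidation, fell by 0.51 ± 0.11 (adjusted p = 0.0407), 1 of 6 tested genes of its list. No gene of the remaining fuel-use lists was called in either test. Which end of a muscle is first is not known, so these last-against-first values assume 1 direction in all 7 muscles.

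The genes whose level along the muscle was most like each of the 6 were found over 70 bins (10 per muscle, centred within the muscle, log2 of CPM plus 10), among 2694 genes of at least 20 CPM on average. These correlations are descriptions, and the points share muscles and depth. Pdk2 was most like Atp2a1, the fast-fibre calcium pump (r = 0.694), Chchd10 (0.694) and Dmpk (0.683). Ucp3 was most like Myo18b (0.555), Chchd10 (0.548) and Gys1, muscle glycogen synthase (0.522). For Acss1 they were Terf2 (0.575), Dlst (0.545) and Gnai2 (0.541), and for Acot2 Atp5a1 (0.522), Crat (0.480) and Mfn1 (0.469). Angptl4 gave Eno1b (0.628), Tmsb10 (0.602) and Sh3bgrl3 (0.591) on very few counts. Pdk4 had the weakest partners, Ap3m1 (0.412), Tspo (0.392) and Dab2 (0.356). Among the 6 themselves, Pdk2 and Ucp3 gave the highest value (0.369), followed by Pdk4 and Acss1 (0.328), while Pdk4 and Ucp3 gave -0.0571.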

How the data were processed

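The authors deposited 1 table of expected counts per muscle (fractional reads per gene, 1 column per section). Per the file headers, featureCounts 2.0.1 summed exons by gene name, dividing multi-mapped and overlapping reads (-M -O --fraction -s 1). Per the submitters' processing notes, STAR 2.7.7a aligned reads to GRCm38. Per the labels' protocols, RNA of each section received an 8-base molecular identifier and an 8-base section barcode.

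Here, sections with at least 1000 counts and 20% of their muscle's median were summed per muscle and rounded to whole numbers. Of 53187 gene names common to the tables, 12 whose length differed between annotations and 92 spike-ins were dropped. edgeR 4.0.16 (R 4.3.3; filterByExpr, TMM, quasi-likelihood test over all 3 groups, Benjamini-Hochberg adjustment) was fitted on all genes, with a call at adjusted p below 0.05. Position fits added the muscle as a block. The ± of a log2 fold is the SE implied by its p; that of a CPM is the SD between muscles. Alternatives used DESeq2 1.42.0, other scalings, filters and sections, and each muscle left out.

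The 6 genes and the lists were chosen with earlier results of these data known. Named are all 6 genes, up to 3 called genes per list and comparison by size (otherwise the most abundant), and the 3 genes most alike along the muscle. Other genes were named beside these after their values were seen. The counts and values of list genes without single Ctr or WT muscles were also chosen after seeing the data. On simulated data for DMD against Ctr (12998 genes), the test called 56.7% of genes changed 2-fold, 100% of those changed 4-fold and 0.0234% of unchanged genes. The simulated counts took the spread typical of a gene's level, and only genes above a minimum level were changed. They therefore do not show how the test does on a gene as uneven within Ctr as Pdk4 or as scarce as Angptl4.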

Additional observations from a re-analysis of the deposited data

How the results depend on the processing

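For DMD over Ctr, 5 of the 6 genes were called in the main setting, 4 or 5 under DESeq2, RLE factors, no filter, all or thinned sections, no mitochondrial genes, either part of the muscle, and only the 2 groups, and 1 (Pdk2) with WT and Ctr joined. Leaving out 1 muscle gave 1 to 5, lowest without Ctr replicate 1, and 3 without DMD replicate 1 or 2. For DMD over WT the count was 0 in the main setting, 1 under DESeq2 and with only the 2 groups, 3 without a filter, and 0 to 2 with 1 muscle left out. For Ctr over WT it was 0, but 2 under DESeq2, thinned sections, the middle 3 runs and only the 2 groups, 5 without a filter, and 0 to 3 with 1 muscle left out. In the position comparisons it was 0 under every alternative run. The cause of these changes was not tested.

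The labels do not say whether replicate numbers pair the muscles. Deviations of same-numbered muscles correlated at 0.00604 to 0.189 over genes, which does not settle it. With 2 muscles in a group the deviations mirror each other, so Ctr and WT gave the same value, 0.0254, for both numbers. With the replicate block, 5 genes were called for DMD over Ctr, 2 for DMD over WT (Pdk2 and Angptl4) and 2 for Ctr over WT. Over all genes, the block called 3890 for DMD over Ctr, 4063 for DMD over WT and 798 for Ctr over WT, against 1740, 2085 and 50 without it. The position comparisons hold the muscle as a block already.

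Signs turned as follows. DMD over WT: Acot2 0.82 with thinned sections and -0.41 to 0.26 leaving out 1 muscle. Ctr over WT, leaving out 1 muscle: Pdk4 -0.21 to 3.69 and Angptl4 -0.45 to 3.48, both lowest without Ctr replicate 1. Ends against middle: Acss1 0.01 with thinned sections and 0.00 with 3 runs. Acot2 was at 0.00 with thinned sections and -0.43 to 0.02 leaving out 1 muscle. Ucp3 was at 0.01 with all sections, 0.06 thinned, 0.00 with 3 runs, 0.01 with 10 runs and -0.16 to 0.10 leaving out 1 muscle. DMD minus the rest: Acss1 0.00 without a filter, 0.13 thinned, 0.05 with 3 runs, 0.20 with 10 runs and -0.13 to 0.11 leaving out 1 muscle. Angptl4 was at 0.31 with 10 runs and -3.04 to 0.26 leaving out 1 muscle, Acot2 at -0.35 and -0.26 to 0.42, and Ucp3 at 0.02 with 3 runs, 0.09 with 10 runs and -0.30 to 0.09. Last against first: Pdk2 0.01 with 10 runs and Angptl4 -0.01 with 3 runs. None of these was called. Thinned sections could not be fitted for Angptl4, which fell below the filter.

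All genes called for DMD over Ctr numbered 2999 without a filter, 683 with only the 2 groups, 675 thinned, 627 in the end runs, and 56 to 3425 leaving out 1 muscle. For DMD over WT they numbered 3208 without a filter, 489 thinned, 646 in the end runs, and 68 to 3595. For Ctr over WT they numbered 465 under DESeq2, 860 without a filter, 586 with only the 2 groups, and 2 to 513. Depth limits Angptl4 most.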

Other observations

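Per1, a clock gene that follows time of day, was lower in WT than in the other muscles. It lay at 12.1, 11.6 and 15.5 CPM in DMD, at 20 and 20.4 CPM in Ctr, and at 3.29 and 2.78 CPM in WT. It was higher in DMD than in WT by 2.10 on the log2 scale (edgeR adjusted p = 0.00226) and higher in Ctr than in WT by 2.72 (adjusted p = 0.00358). The call over WT was lost for Ctr with either WT muscle left out (adjusted p = 0.0959 and 0.137) and for DMD without WT replicate 2 (adjusted p = 0.0564). Of 12 tested clock genes 3 were called higher in DMD than in WT, 2 lower in DMD than in Ctr and 1 higher in Ctr than in WT, where 8.25%, 5.49% and 0.364% of all genes were called higher in DMD than WT, lower in DMD than Ctr, and either way in Ctr against WT. The 3 over WT were 1 without WT replicate 1 and 0 without WT replicate 2, and the 2 against Ctr were 0 without Ctr replicate 1. Dbp, a clock output factor, had 91 counts in Ctr replicate 1 and 294 in Ctr replicate 2, the reverse of Pdk4. Scaled, that ratio was 0.224. The clock genes did not all go that way. Their median ratio was 0.802, and 1 of the 12, Arntl, was at least 2-fold higher in Ctr replicate 1 (2.06). The labels give no time of sampling.

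Among 8 fibre type genes, Myl3 and Myh2 fell in DMD against Ctr, by 2.42 and 1.27 on the log2 scale (edgeR adjusted p = 0.000905 and 0.0159), and against WT, and the other 6 were not called, where 5.49% of all genes fell against Ctr and 6.92% against WT. Myl3 was still called against Ctr with either Ctr muscle left out and against WT with either WT muscle left out, and Myh2 was not without Ctr replicate 1 or 2 (adjusted p = 0.0773 and 0.0732) nor without WT replicate 1 or 2 (adjusted p = 0.0503 and 0.0733). Myl3, a slow and cardiac light chain, lay at 8.87, 8.35 and 7.94 CPM in DMD, 41.0 and 49.0 CPM in Ctr, and 156 and 176 CPM in WT. Myh2, the myosin of the oxidative fast fibres, had 79.7, 53.9 and 53.5 CPM in DMD, 127 and 175 CPM in Ctr, and 201 and 227 CPM in WT.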
